A study of Mus musculus with 36 samples.

Results

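The respiratory chain genes described here carry the symbols of complex I (Nduf followed by a, b, c, s or v), complex II (Sdha to Sdhd), complex III (Uqcr), complex IV (Cox4 to Cox8) and ATP synthase (Atp5), together with the protein genes of mitochondrial DNA (mt-Nd, mt-Cytb, mt-Co and mt-Atp). Of 32544 symbols in the deposited table, 111 matched, and 100 of these averaged at least 1 CPM, the read count scaled to library size, over the 36 libraries. They comprised 87 nuclear genes and 13 mitochondrial genes, and all 100 had enough counts to be tested. The nuclear genes were 38 named for complex I, 7 complex I assembly factors (Ndufaf), 4 of complex II and 8 of complex III. There were also 13 of complex IV, 15 of ATP synthase and 2 others that matched by their Atp5 symbol alone (Atp5s and Atp5sl). The lowest members, Cox6a2, Ndufa4l2 and Cox7a1, averaged 1.02, 1.06 and 1.5 CPM, and the highest symbol left out, Cox8b, averaged 0.645 CPM.

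Whole livers of male C57BL/6N mice, 8 to 10 weeks old at the start, were sampled in 6 groups of 6. Carbon tetrachloride (CCl4), a solvent that hepatocytes convert to toxic radicals, was given in olive oil by injection into the abdomen, 2 times a week for 2, 6 or 12 months, each dose being 1 g per kg. Vehicle mice received olive oil alone for 2 or 12 months, and injected mice were sampled on day 6 from the final injection. The sixth group is titled month 0 control, although its treatment label also reads olive oil. There was no oil group at month 6. Nothing in the labels says how replicates within a group were housed or processed, so p-values measure the spread between these samples.

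The respiratory chain passes electrons from NADH through complex I and from succinate through complex II to ubiquinone, then through complex III and cytochrome c to oxygen at complex IV. Protons pumped on the way drive ATP synthase. Most subunits are nuclear genes whose proteins are imported, while a small set of hydrophobic core subunits of complexes I, III, IV and V is encoded in mitochondrial DNA and transcribed there as long polycistronic RNAs. Complex II has no subunit encoded in mitochondrial DNA. Hepatocytes are rich in mitochondria and use them for urea synthesis, fatty acid oxidation and gluconeogenesis.

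Each library held 19403247 to 28917545 counts. Scaling decides the sign of several results. Libraries were scaled by the trimmed mean of M-values (TMM), which sets the typical gene to no change, and the mean factor was 0.873 in month 12 oil and 1.27 in month 12 CCl4. Between the month 12 groups the share of counts in the major urinary protein (Mup) genes, abundant secreted products of male liver, went the opposite way. It was 16.2% ± 3.8 (SD, n = 6) in month 12 oil and 0.657% ± 0.51 in month 12 CCl4. It did not follow the mean factor over all groups, at 4.09% with 0.797 in month 0 and 4.05% with 1.08 in month 2 CCl4. On library totals the median gene was higher by 0.20 at month 2, 0.31 at month 6 and 0.56 at month 12 on the log2 scale. Fold changes below are therefore log2 values relative to the median gene, and CPM values are TMM scaled, unless a share of counts is named.

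Hepatocyte markers were high in every library, with a summed level of 69100 to 154000 CPM over 10 genes. At month 12, 7 of these 10 were lower with CCl4 and 0 higher (median -0.72), while 7 of 10 macrophage markers were higher and 1 lower (median 0.63) and 4 of 9 tested cholangiocyte markers were higher and 0 lower (median 0.63). Their part in the results was not tested. In whole tissue, fewer hepatocytes and less RNA per hepatocyte cannot be told apart. Transcripts of other tissues appeared unevenly: summed pancreas markers ran from 9.3 to 38200 CPM and summed muscle markers from 4.47 to 449 CPM over the libraries. Counts of calls were repeated without 4 libraries, chosen with results of these data known for blood, gut, pancreas or muscle transcripts and called the 4 set-aside libraries here. They were replicates 1 and 6 of CCl4 and 2 of oil at month 2, and replicate 2 of oil at month 12. These were not the libraries highest in pancreas and muscle markers, so counts were also repeated without the 10 libraries over 100 CPM of summed muscle or 20000 CPM of summed pancreas markers. The 10 comprised 3 of month 12 oil, 2 of month 12 CCl4, 2 of month 2 oil and 1 each of the other groups, and 2 of them were also among the 4.

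As a share of all counts, the nuclear members were lowest at month 0 and the mitochondrial members made up several times more of each library than the nuclear ones. The nuclear members held 0.766% ± 0.0913 of counts at month 0, 1.06% ± 0.0396 in month 2 oil, 1.16% ± 0.0798 in month 2 CCl4, 1.21% ± 0.0858 in month 6 CCl4, 0.96% ± 0.107 in month 12 oil and 1.12% ± 0.171 in month 12 CCl4 (SD, n = 6 each). The 13 mitochondrial members held 3.48% ± 0.288, 5.10% ± 0.628, 4.58% ± 0.395, 4.48% ± 0.4, 4.17% ± 0.613 and 4.98% ± 1.49 in the same order. Within month 12 CCl4 the mitochondrial share ran from 2.72% in replicate 2 to 6.89% in replicate 6, the widest range of the 6 groups.

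**Figure D1:**
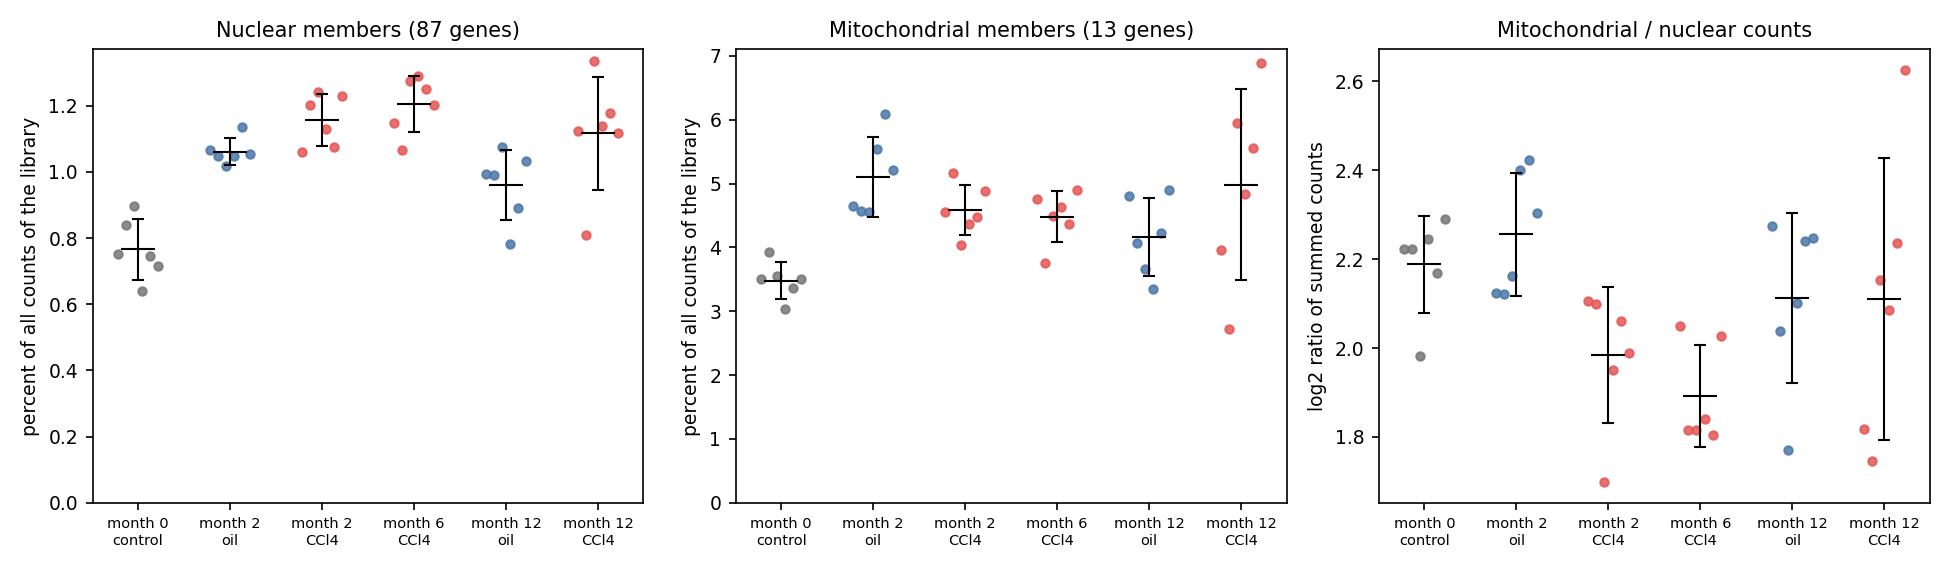
Percent of all counts in the 87 nuclear members (left) and the 13 mitochondrial members (middle), and the log2 ratio of their summed counts (right), for each library by group. Bars are group means with SD (n = 6). All 6 month 2 CCl4 libraries lie below all 6 month 2 oil libraries in the ratio, by a narrow gap (2.10 against 2.12). The month 12 CCl4 libraries spread widest.

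Per kilobase of the longest coding transcript, the mitochondrial members averaged 310 to 15600 CPM (median 2130) and the 86 nuclear members with a known length 1.08 to 480 CPM (median 87.3). mt-Co3 and mt-Co1, core subunits of complex IV, stood at 15600 and 12100 CPM per kilobase. The highest nuclear member was Atp5b, the catalytic beta subunit of ATP synthase, at 480 CPM per kilobase. Only mt-Nd4l, mt-Nd5 and mt-Nd6 lay below Atp5b on this scale.

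Nuclear respiratory chain transcripts were lower, relative to the median gene, after 12 months of CCl4 than after 12 months of oil. Of 87 nuclear members 56 were called lower and 3 higher (adjusted p below 0.05), with a median of -0.31. Over all 15338 tested genes 49.1% were called, 23.2% lower and 25.9% higher, and the median was 0.01. For 16 nuclear members all CCl4 mice lay below all oil mice, which held for 10.2% of all tested genes. With library totals alone 40 of 87 nuclear members were called higher and 0 lower, while 67.4% of all genes were higher and 3.86% lower. No nuclear member was therefore called lower as a share of counts, 40 of 87 is a smaller share than that of all genes, and the falls given by complex hold for TMM scaling. A fit of the compared groups alone called 35 lower and 1 higher, against 2689 lower and 3537 higher of 14519 genes. Without the 10 libraries high in muscle or pancreas markers it was 43 and 2, against 2712 and 3311 of 15627 genes.

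**Figure D2:**
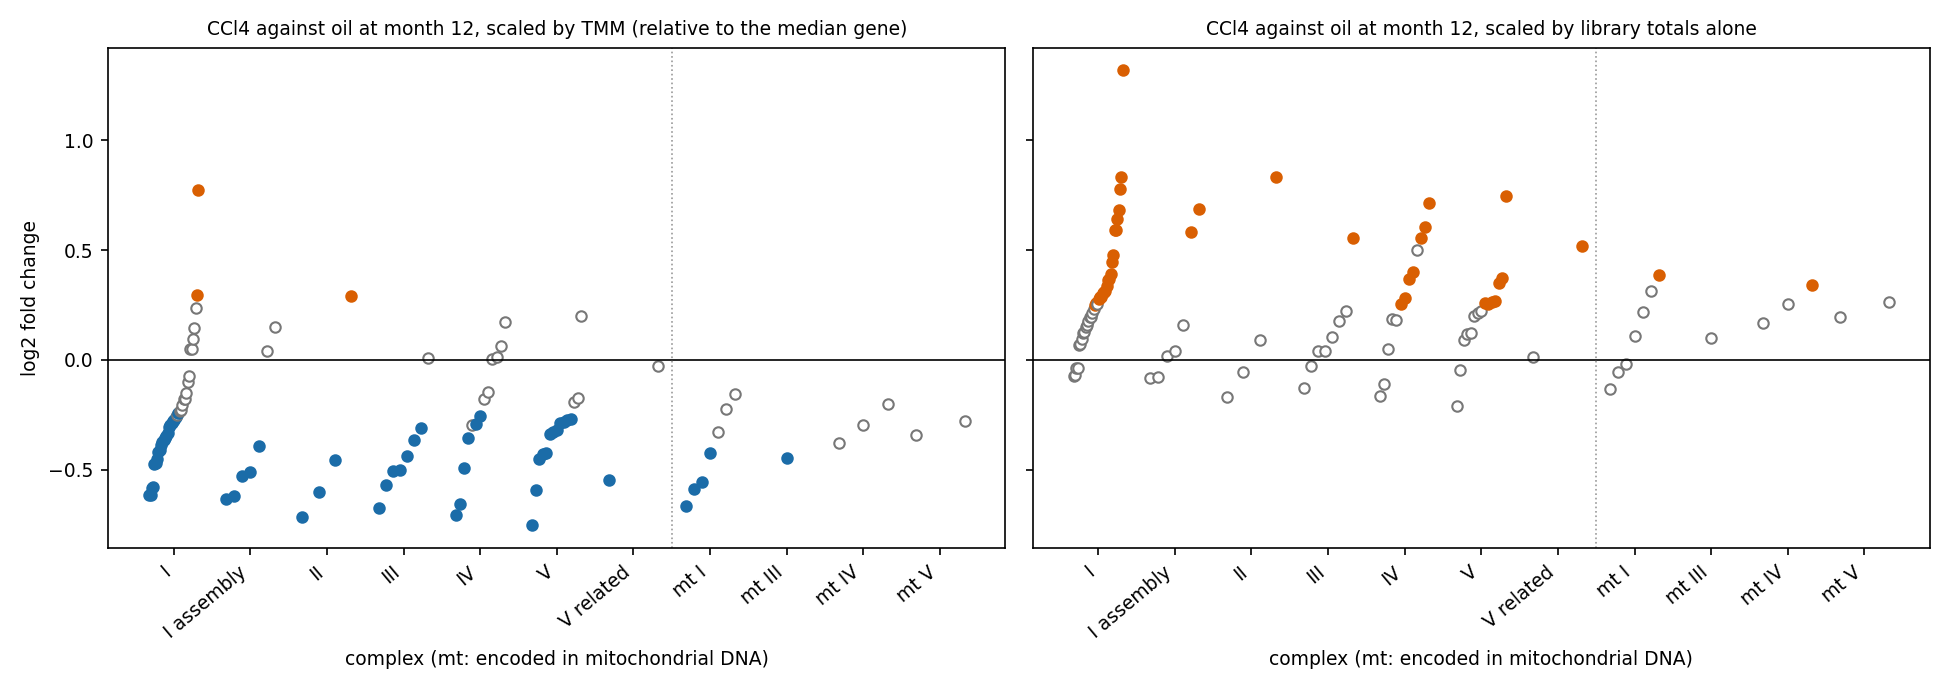
Log2 fold change of each of the 100 members, CCl4 against oil at month 12, by complex, with TMM scaling (left) and with library totals alone (right). Each point is a gene, filled where the adjusted p was below 0.05 (blue lower, orange higher). With TMM 56 nuclear members are called lower, and with library totals 40 are called higher and 0 lower, where the median of all genes is 0.56.

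Complex II, which oxidises succinate and also serves the citric acid cycle, had 3 subunits lower and 1 higher at month 12. Sdha, the flavoprotein that carries the active site (mm10 chromosome 13, 74322254 to 74350280), had 340, 397 and 454 CPM (lowest, median, highest) in month 12 oil and 184, 261 and 304 CPM in month 12 CCl4, so the groups did not overlap. It fell by 0.71 (SE 0.11, adjusted p = 1.3e-06). Sdhd, a membrane anchor (chromosome 9, 50596357 to 50603812), had 154, 199 and 210 CPM in oil and 94.3, 130 and 142 CPM in CCl4, again without overlap, and fell by 0.60. Sdhb, the iron-sulfur subunit, fell by 0.46 (adjusted p = 0.0054) and stood at 0.09 with library totals alone.

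Sdhc, the other membrane anchor (chromosome 1, 171127165 to 171150603), went the opposite way. Its values were 98.9, 107 and 128 CPM in month 12 oil and 111, 135 and 151 CPM in month 12 CCl4, with some overlap. It rose by 0.29 (SE 0.09, adjusted p = 0.009) and by 0.83 with library totals alone, and lost the call (0.24) without the 4 set-aside libraries. The log2 ratio of Sdhc to Sdha within a library, which does not move with scaling, was -2.0 to -1.76 in month 12 oil and -1.16 to -0.28 in month 12 CCl4. In the other 4 groups it lay between -2.03 and -1.38, so the month 12 CCl4 mice stood apart from all 30 other libraries. This pair was chosen after its values were seen and was not tested.

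**Figure D3:**
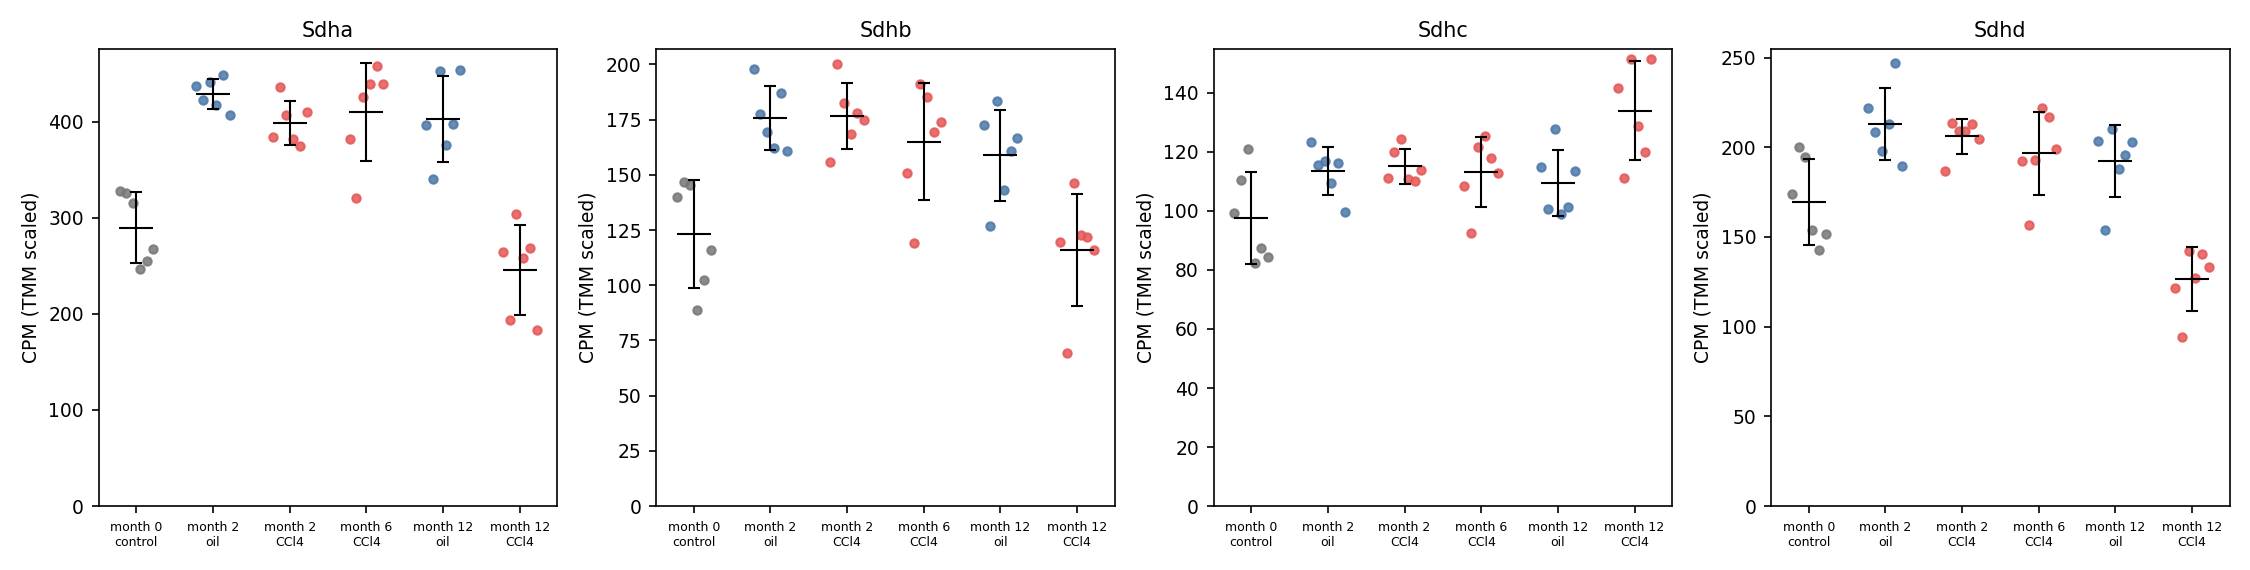
TMM-scaled CPM of the 4 complex II subunits in each library by group, with group means and SD (n = 6). Sdha, Sdhb and Sdhd are lower in month 12 CCl4 than in month 12 oil, and Sdhc is higher.

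In complex III, which passes electrons from ubiquinol to cytochrome c, 7 of 8 nuclear subunits fell at month 12 (median -0.47). Uqcrb, a small subunit near the ubiquinone site (chromosome 13, 66900617 to 66905378), had 118, 153 and 164 CPM in oil and 74.7, 91.4 and 109 CPM in CCl4. It fell by 0.67 (SE 0.09, adjusted p = 4.6e-07) with no overlap of the groups. Uqcrh, the hinge protein, fell by 0.50 and the core subunit Uqcrc1 by 0.57. Uqcr10 (0.01, adjusted p = 0.95) was not called. Scaled to library totals Uqcrh stood at 0.04.

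In complex IV, 6 of 13 nuclear members fell and none rose (median -0.26). Cox5a (chromosome 9, 57521274 to 57532426) had 100.2, 110 and 124 CPM in oil and 54.3, 71.1 and 78.1 CPM in CCl4, without overlap, and fell by 0.71 (SE 0.10, adjusted p = 3.6e-07). Cox7a2, the subunit form of most tissues, fell by 0.66 and Cox4i1 by 0.26. Cox5b (0.06), Cox6a1 (0.02) and Cox7a2l (0.17) were not called. Ndufa4, named for complex I but assigned to complex IV in later work, fell by 0.39 (adjusted p = 0.0063). With library totals alone Cox4i1 (0.28) and Ndufa4 (0.15) were above 0. The Cox4i1 call was lost without month 12 oil replicate 3 or CCl4 replicate 2, 4, 5 or 6 (-0.24 to -0.15), with no filter on low counts, with only the compared groups and without the 10 libraries (-0.18).

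Among ATP synthase genes, 12 of 15 fell and none rose (median -0.32). Atp5l, the membrane subunit g (chromosome 9, 44912557 to 44920742), had 173, 199 and 222 CPM in oil and 92.0, 121 and 141 CPM in CCl4. Its fall of 0.75 (SE 0.09, adjusted p = 3.1e-08) was the largest of the nuclear members, and the groups did not overlap. Atp5j, coupling factor 6, fell by 0.59 and Atp5b by 0.32. The c-ring subunit is made from 3 genes: Atp5g1 fell by 0.28 and Atp5g3 by 0.27, while Atp5g2 stood at 0.20 (adjusted p = 0.17). By share of counts Atp5b stood at 0.22, Atp5g1 at 0.26 and Atp5g3 at 0.27. The Atp5g1 call was lost without month 12 oil replicate 6 or CCl4 replicate 2 (-0.24 to -0.16) and with only the compared groups. That of Atp5g3 was lost without CCl4 replicate 2, 4 or 6 (-0.25 to -0.19), with no filter on low counts, with only the compared groups and without the 10 libraries (-0.24).

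Of the 38 nuclear members named for complex I, the entry point for NADH electrons, 22 fell and 2 rose at month 12 (median -0.28). Ndufs4, an accessory subunit needed for a stable enzyme (chromosome 13, 114287795 to 114388258), had 71.6, 80.4 and 88.4 CPM in oil and 42.5, 52.1 and 61.3 CPM in CCl4, without overlap. It fell by 0.62 (SE 0.08, adjusted p = 8.7e-08). Ndufab1, a mitochondrial acyl carrier protein, fell by 0.41 (adjusted p = 5e-06). Of the 7 nuclear core subunits, which bind the flavin and iron-sulfur centres, Ndufs7 (-0.47) and Ndufs8 (-0.33) fell, and among those not called were Ndufs1 (-0.10), Ndufs3 (-0.18), Ndufv1 (-0.23) and Ndufv2 (-0.25). Of the other 31 named for complex I, Ndufa4 and its relative Ndufa4l2 included, 20 fell and 2 rose. The difference between the core subunits and these others was not tested. On library totals Ndufab1 (0.13), Ndufs7 (0.07) and Ndufs8 (0.21) were above 0.

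The 2 members named for complex I that rose were Ndufa7 and Ndufa4l2. Ndufa7, an accessory subunit (chromosome 17, 33824572 to 33838317), had 58.3, 63.6 and 75.0 CPM in oil and 56.2, 82.2 and 106 CPM in CCl4, with overlap, and rose by 0.30 (SE 0.10, adjusted p = 0.012). It was also called for a larger effect at month 12 than at month 2 (0.38, adjusted p = 0.049), a call lost when any of 17 libraries was left out and under 7 other settings. Ndufa4l2, a hypoxia-responsive relative of Ndufa4, had 0.771, 0.849 and 1.01 CPM in oil and 0.658, 1.16 and 3.10 CPM in CCl4. Its rise of 0.77 (adjusted p = 0.022) was not called without month 12 CCl4 replicate 2 (0.44), which held 101 counts against 23 to 52 in the other 5, nor without the 10 libraries (0.40). Of the 7 Ndufaf assembly factors 5 fell, among them Ndufaf6 by 0.62, Ndufaf1 by 0.51 and Ndufaf4 by 0.63. With library totals alone Ndufaf1 stood at 0.04. Ndufaf5 (0.15) and Ndufaf7 (0.04) were not called. Sdhb, Uqcr10, Cox5b, Atp5b, Ndufaf4 and Ndufaf7 were chosen after their values were seen.

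Promoters of 4 members are shown. Sdha, Sdhd and Uqcrc1 fell at month 12 and hold the motif of NRF1, a transcription factor known for respiratory chain genes. Ndufa7 rose and holds none of the motifs searched. The 4 were picked for this contrast, and Cox5a and Cox7a2, which also fell, hold none of the motifs either. Among members with a promoter, NRF1 letters were in 25.0% of those called lower at month 12 and 31.8% of the others. The windows run from 250 bases before to 50 after the start in RefSeq on GRCm38.p6, at chr13:74350191-74350490 (minus strand), chr9:50603800-50604099 (minus), chr9:108936398-108936697 (plus) and chr17:33824322-33824621 (plus). Capitals mark matches to the NRF1 motif and, in Sdhd, a GABPA match on the other strand.
Sdha: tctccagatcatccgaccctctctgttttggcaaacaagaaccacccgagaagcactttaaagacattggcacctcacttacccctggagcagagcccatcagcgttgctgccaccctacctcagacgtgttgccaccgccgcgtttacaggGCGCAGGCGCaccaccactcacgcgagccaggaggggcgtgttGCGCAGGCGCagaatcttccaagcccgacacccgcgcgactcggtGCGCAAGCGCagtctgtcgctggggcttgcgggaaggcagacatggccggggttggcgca
Sdhd: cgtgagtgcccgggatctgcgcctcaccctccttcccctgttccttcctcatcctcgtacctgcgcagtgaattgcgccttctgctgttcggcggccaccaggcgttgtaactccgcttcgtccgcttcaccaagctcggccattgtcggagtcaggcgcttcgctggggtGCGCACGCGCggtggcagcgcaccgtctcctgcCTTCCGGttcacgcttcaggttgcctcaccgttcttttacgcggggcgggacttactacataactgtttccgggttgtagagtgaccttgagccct
Uqcrc1: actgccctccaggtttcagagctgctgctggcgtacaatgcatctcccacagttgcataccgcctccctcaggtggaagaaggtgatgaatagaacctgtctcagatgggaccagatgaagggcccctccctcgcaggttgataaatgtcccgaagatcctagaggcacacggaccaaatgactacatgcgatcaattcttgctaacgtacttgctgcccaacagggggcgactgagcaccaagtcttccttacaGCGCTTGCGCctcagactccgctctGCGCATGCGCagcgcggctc
Ndufa7: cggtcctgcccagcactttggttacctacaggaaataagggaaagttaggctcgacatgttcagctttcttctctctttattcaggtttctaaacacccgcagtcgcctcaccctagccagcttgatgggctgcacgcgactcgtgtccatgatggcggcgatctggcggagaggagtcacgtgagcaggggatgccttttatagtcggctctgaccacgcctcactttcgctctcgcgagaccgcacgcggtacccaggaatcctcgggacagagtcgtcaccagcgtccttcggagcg

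Both strands were searched for NRF1 (GCGCA, any base, then GCGC), GABPA (CCGGAAG) and YY1 (AAGATGGC) (the end of the GABPA motif and the start of the YY1 motif share the letters AAG, so that matches can overlap). Of 87 nuclear members 70 had promoters in the RefSeq table, 75 windows in all. NRF1 letters were in 26.7% of these windows and 4.6% of all 32851 promoters, GABPA letters in 22.7% and 8.86%, and YY1 letters in 12.0% and 2.75%. Median GC content was 58.3% in the members and 52.7% in all promoters. The NRF1 letters were in 12 of the 48 members with a promoter that were called lower at month 12 and in 7 of the 22 others, and the GABPA letters in 12 of 48 and 5 of 22. YY1 letters were in 8 of 48 and 1 of 22. A match is a description of letters in a window.

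The difference between month 12 and month 2 effects was tested as an interaction. Of the nuclear members 20 had a lower and 1 a higher effect at month 12 (median -0.22), against 21.3% of all genes called in either direction and 10.1% lower. The lowest were Cox5a (-0.68, SE 0.14, adjusted p = 0.00046), Ndufaf4 (-0.66), Sdha (-0.61), Atp5l (-0.60), Uqcrc1 (-0.59) and Sdhd (-0.56). Complex III held 5 of these 20 among its 8 members. Under scaling by totals 14 members were called higher and 0 lower, against 33.3% of all genes higher. With no filter on low counts 11 of 87 were called, against 2800 of 24833 genes. Without the 10 libraries it was 7 of 87, against 1799 of 15627 genes. No mitochondrial member was called by edgeR or DESeq2, and none had an unadjusted p below 0.05, while 1 was higher with library totals.

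CCl4 month 12 was also set against CCl4 month 6. Here 44 nuclear members were lower and 4 higher (median -0.25), with 39.2% of all genes called, 18.6% lower and 20.6% higher. The lower members included Sdha (-0.74), Sdhd (-0.64), Cox5a (-0.65) and Atp5l (-0.64). The higher were Ndufa7 (0.31), Ndufaf5 (0.39), Atp5g2 (0.36) and Sdhc (0.24). The Sdhc call was lost when any of 6 libraries was left out, that of Ndufa7 without month 12 CCl4 replicate 6 (0.22) and that of Ndufaf5 without month 6 CCl4 replicate 6 (0.33). Sdha, Sdhd, Cox5a and Atp5l stayed called lower with library totals alone (-0.56, -0.46, -0.47 and -0.46), where 19 nuclear members in all were lower and 14 higher, against 8.37% and 31.4% of all genes. A fit of these groups alone called 31 lower and 1 higher, against 2052 and 2603 of 14776 genes. No mitochondrial member was called by edgeR or DESeq2 (1 had an unadjusted p below 0.05), with a median of 0.06, and 1 was called without month 12 CCl4 replicate 2.

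At month 2 the nuclear members were nearly level with the median gene and only Uqcrb was called. The median was -0.10, 76 of 87 values were below 0, and 10.4% of all genes were called, 3.38% lower. Uqcrb had 138, 151 and 199 CPM in oil and 120, 128 and 145 CPM in CCl4 and fell by 0.28 (adjusted p = 0.0489), with overlap. The call was lost when any of 9 libraries was left out, among them month 2 oil replicate 5, the highest oil value, without which it was -0.20. It was also lost without the 10 libraries (-0.31, adjusted p = 0.0555). By share of counts 4 nuclear members were higher and 0 lower, against 20.6% of all genes higher. At month 6, with the average of both oil groups as reference, 0 of 87 were called by edgeR and DESeq2 (2 with an unadjusted p below 0.05, median -0.08), with 11.4% of all genes called. With library totals alone 61 of 87 were higher, against 57.9% of all genes. By TMM, 2 were lower without month 12 oil replicate 2 or without the 4 set-aside libraries, and 1 without the 10 libraries. CCl4 month 6 against month 2 called 0 members of either kind by edgeR and DESeq2, with 0 at an unadjusted p below 0.05 and 0.502% of all genes called.

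The mitochondrial members share a genome and its transcripts, so they are not independent of each other. Their counts also depend on nuclear copies of mitochondrial DNA. Of the 13 genes 9 have an annotated pseudogene with at least 95% identity over at least 250 bases, and 4 of 11 such copies, all on chromosome 1, held over 100000 counts each. Gm28661, identical to mt-Co2 over 681 bases (chromosome 1, 24614885 to 24615565), held 108% as many counts as mt-Co2 itself. Gm28438 (chromosome 1, 24612775 to 24613119) held 292% as many counts as mt-Nd3. The 11 copies together held counts equal to 16% of those of the mitochondrial members. The reads of such pairs cannot be told apart where the sequences are the same. The first bases of mt-Nd3 and its copy are shown because 1 difference in 345 compared bases, T3C (mt-Nd3 base first, counted from 1 at the first base of the gene), is all that separates them over that stretch. Capitals mark it.
mt-Nd3: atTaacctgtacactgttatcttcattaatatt
Gm28438: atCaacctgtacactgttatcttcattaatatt

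The annotations of mt-Atp8 and mt-Atp6, of mt-Nd4l and mt-Nd4, and of mt-Nd5 and mt-Nd6 overlap, and mt-Nd6 (mm10 chromosome M, 13552 to 14070) lies on the other strand from the remaining 12. Libraries were stranded, per the labels, but the use of strand in counting is not stated in these sources.

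At month 12, 5 of 13 mitochondrial members were lower with CCl4 and 0 higher (median -0.34), where 23.2% of all genes were lower and 49.1% called. mt-Nd6, a complex I membrane subunit, had 156, 180 and 235 CPM in oil and 86.0, 122 and 147 CPM in CCl4, so the groups did not overlap, and fell by 0.66 (SE 0.15, adjusted p = 0.00049). mt-Nd5 fell by 0.59, mt-Nd3 by 0.55, mt-Cytb by 0.45 and mt-Nd4 by 0.42. The call for mt-Nd3 was lost with the counts of its copy added (-0.37). mt-Co1, at 13900, 20100 and 22700 CPM in oil and 8420, 17000 and 21000 CPM in CCl4, was not called (-0.30, adjusted p = 0.11). Scaled to library totals 2 members were higher and 0 lower, against 67.4% of all genes higher, and mt-Cytb (0.10) and mt-Nd4 (0.11) changed sign. The count was 1 (mt-Nd6) without month 12 CCl4 replicate 2, 3 without CCl4 replicate 4 or oil replicate 1, 8 without CCl4 replicate 6 and 2 with only the compared groups. None was called without the 10 libraries high in muscle or pancreas markers (median -0.16).

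At month 6, 6 of 13 mitochondrial members were lower (median -0.45), as were 3.68% of all genes, while none of the nuclear members was called. mt-Nd3 fell by 0.71 (SE 0.18, adjusted p = 0.0088), mt-Cytb by 0.57, mt-Atp8 by 0.54, mt-Nd4l by 0.48, mt-Atp6 by 0.46 and mt-Co3 by 0.45. mt-Cytb, the catalytic cytochrome b of complex III (chromosome M, 14145 to 15288), had 1730, 2290 and 2730 CPM in month 6 CCl4. Its values were 3340, 3660 and 4120 CPM in month 2 oil, without overlap, and 2590, 3150 and 3610 CPM in month 12 oil, with overlap. Without month 6 CCl4 replicate 1, the highest of its group for all 7 mt-Nd genes, 11 members were lower. Without replicate 2 it was 2, and without replicate 3 or 5 it was 3. With month 12 oil alone as the reference 1 was called, without the 10 libraries 5, and with library totals alone 0. In this comparison 7 of 10 macrophage markers were higher and 1 lower (median 0.67), and 5 of 9 neutrophil markers were higher (median 1.38), and their part in the result was not tested.

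At month 2 no mitochondrial member was called by edgeR, although all 13 values were negative (median -0.35), 8 had an unadjusted p below 0.05 and DESeq2 called 2. A fit of the compared groups alone called 6 lower, against 817 of 14187 genes. For 2 members all CCl4 mice lay below all oil mice, as for 2.4% of all genes. mt-Cytb had 2160, 2950 and 3170 CPM in month 2 CCl4 against the oil values above, without overlap (-0.40, SE 0.15, adjusted p = 0.086). Under scaling by totals the median was -0.16.

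**Figure D4:**
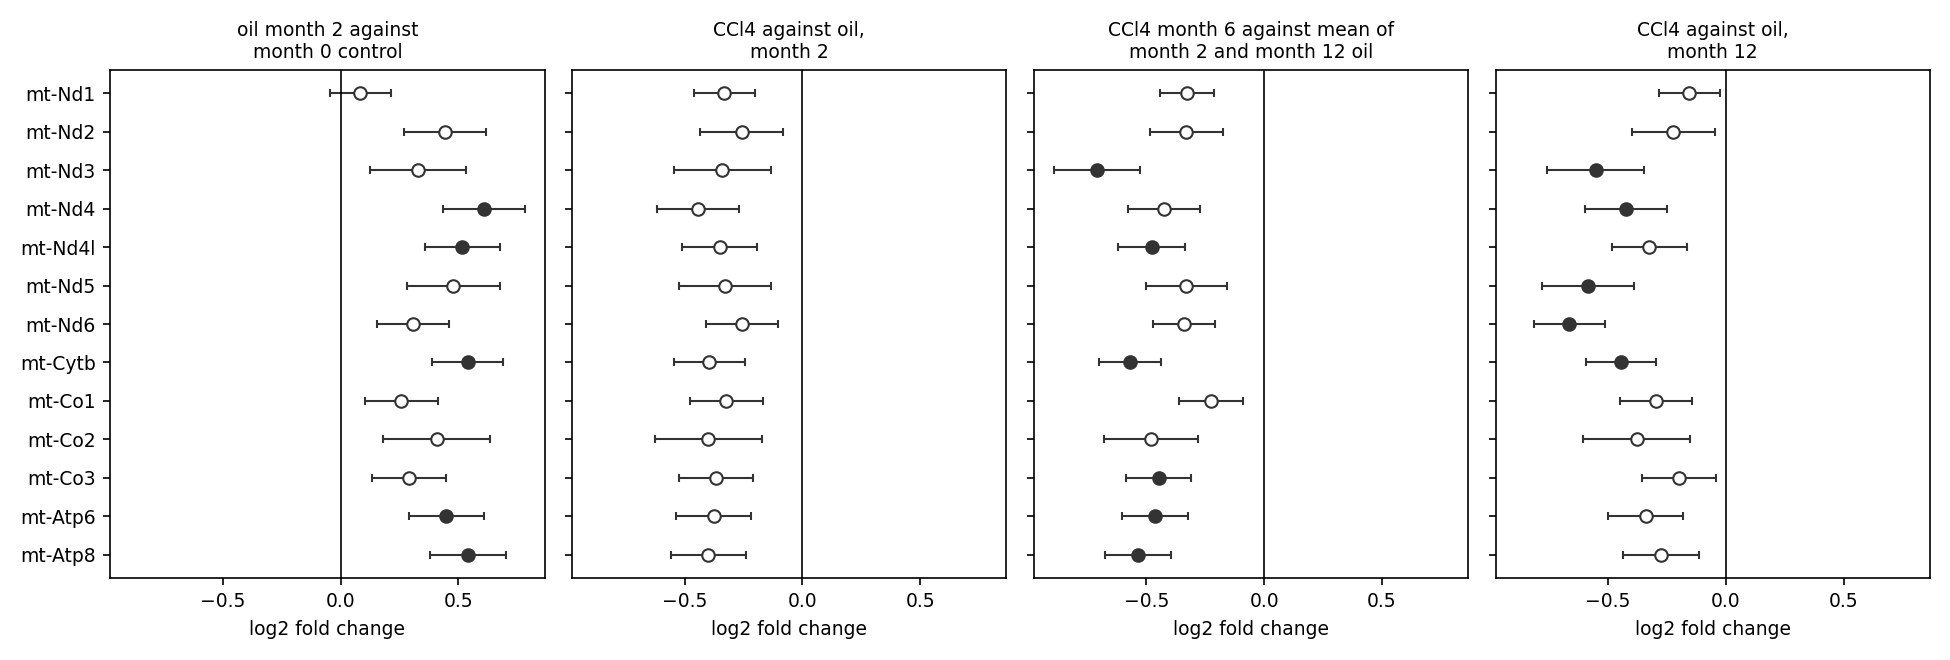
Log2 fold change (point) and SE (bar) of the 13 mitochondrial members in 4 comparisons, relative to the median gene. Filled points had an adjusted p below 0.05. All 13 lie above 0 in month 2 oil against month 0 and below 0 in the 3 comparisons of CCl4 with oil. These comparisons share oil groups.

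The ratio of mitochondrial to nuclear counts, which does not move with the scaling of a library, was lower with CCl4 at month 2, while at month 12 CCl4 and oil differed by less than the spread. In log2 units it was 2.12 to 2.42 (mean 2.26, SD 0.138) in month 2 oil and 1.70 to 2.10 (mean 1.98, SD 0.153) in month 2 CCl4, so that the groups did not overlap and differed by -0.27. In month 6 CCl4 it was 1.80 to 2.05 (mean 1.89, SD 0.114), -0.29 from the mean of both oil groups. In month 12 oil it was 1.77 to 2.27 (mean 2.11, SD 0.192) and in month 12 CCl4 1.75 to 2.63 (mean 2.11, SD 0.317), a difference of -0.00166, smaller than the spread. As a fold, mitochondrial counts were 4.80 ± 0.463 times the nuclear in month 2 oil, 3.97 ± 0.397 in month 2 CCl4, 3.72 ± 0.301 in month 6 CCl4, 4.35 ± 0.545 in month 12 oil and 4.41 ± 1.01 in month 12 CCl4. Being a score over the members, the ratio was given no p. The month 2 difference was -0.27 with the nuclear copies added, -0.33 without the 4 set-aside libraries and -0.31 without the 10 high in muscle or pancreas markers. The month 2 groups overlapped by mean log2 CPM in place of summed counts, CCl4 replicate 1 (4.265) lying above oil replicates 1 (4.227) and 3 (4.249). They also overlapped without the highest member of each set, with CCl4 replicate 1 at 1.513 and oil replicate 1 at 1.506. At month 2, 8 of 9 neutrophil markers (median 2.42), 7 of 10 macrophage markers (median 0.64) and 5 of 11 stellate cell markers (median 0.36) were higher with CCl4, and their part in the ratio was not tested.

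In olive oil mice of month 2 against month 0, 27 of 87 nuclear members were higher and 0 lower (median 0.20), and 5 of 13 mitochondrial members were higher (median 0.44). Of all genes 31.3% were called, 14.8% higher. Summed neutrophil markers were 48.1 to 120 CPM at month 0 and 11.2 to 19.7 CPM in month 2 oil, and 7 of 9 were called lower. Of red blood cell and blood markers 5 of 9 were higher and 0 lower (median 1.15), and of lymphocyte markers 4 of 10 and 0. Of macrophage markers 5 of 10 were higher and 1 lower, and of endothelial markers 0 were higher and 3 of 10 lower. The part of such cells in the result was not tested. Sdha rose from 247, 291 and 327 CPM at month 0 to 407, 430 and 449 CPM, without overlap (0.57, SE 0.11, adjusted p = 0.00013). Atp5sl rose by 0.72 and Uqcrc1 by 0.45. Of the complex I core Ndufs1 rose by 0.46, Ndufv1 by 0.36 and Ndufs3 by 0.29. mt-Nd4 rose by 0.61, mt-Cytb by 0.54, mt-Atp8 by 0.54, mt-Nd4l by 0.52 and mt-Atp6 by 0.45. The direction held with library totals alone (71 nuclear and 13 mitochondrial members higher, against 34.4% of all genes). The Ndufv1 call was lost without month 0 replicate 5 or 6 (0.30 and 0.31). Without month 0 replicate 4, 5 or 6 the nuclear count was 15, 14 or 17, and without the 4 set-aside libraries it was 18. The log2 ratio was 2.19 (SD 0.109) at month 0, 0.07 below month 2 oil, and by mean log2 CPM in place of summed counts the difference was 0.25. Month 12 against month 2 oil called 0 members of either kind by edgeR and DESeq2 (2 nuclear with an unadjusted p below 0.05), with 0.0717% of all genes called.

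Several complex IV subunits have a muscle and a general form, and the muscle forms varied widely between libraries of the same group. Cox6a2, the heart and skeletal muscle form of subunit VIa (chromosome 7, 128205435 to 128206387), had 110 counts in month 0 replicate 3 and 1 to 24 in the other 5, and 140 counts in month 2 oil replicate 6 and 0 to 4 in the others. In month 12 CCl4 it had 139 counts in replicate 4 and 70 in replicate 2, and 1 to 18 in the others. Over the 36 libraries its Pearson correlation with the summed level of 14 muscle markers was 0.93 (Spearman 0.84), and that of Cox6a1, the general form, was -0.25 (Spearman -0.27). For Cox7a1 it was 0.68 (Spearman 0.47) and for Cox8b, just outside the membership rule, 0.80 (Spearman 0.63). These are descriptions, in which points share library composition. Of the muscle markers, Myh6 was at 0 in 4 of the 6 groups. Cox6a1 stood between 90.2 and 169 CPM in all libraries.

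**Figure D5:**
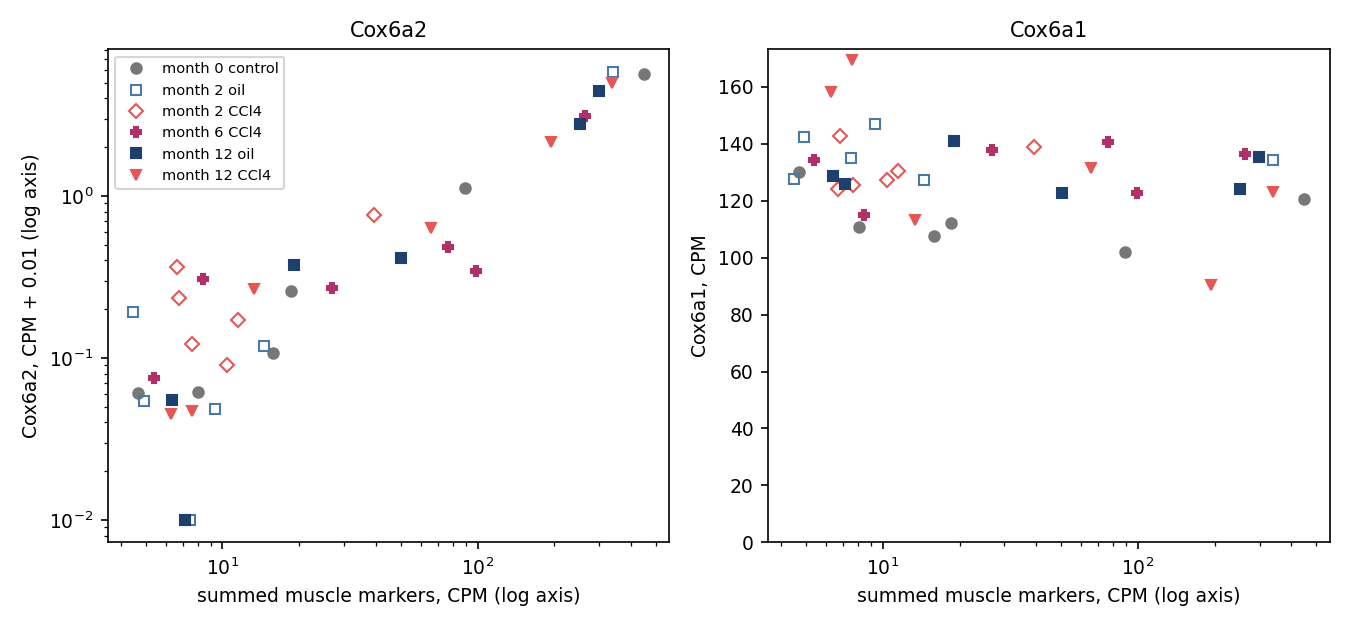
Cox6a2 (left, CPM + 0.01, log axis) and Cox6a1 (right, CPM, linear axis) against the summed CPM of 14 muscle markers (log axis) in 36 libraries, by group. Cox6a2 follows the muscle markers and the libraries of a group spread along the line, while Cox6a1 stays between 90.2 and 169 CPM.

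Counts for other genes of the mitochondrial machinery at month 12 are read beside the 23.2% of all genes lower and 25.9% higher. Of 40 tested assembly factors without a member's symbol 19 fell and 5 rose (median -0.26), with Ecsit (-0.99), Cox16 (-0.81) and Tmem126b (-0.58) at the smallest p. Of 17 genes of electron carriers and ubiquinone synthesis 10 fell and 1 rose. These included Coq3 (-1.07), a ubiquinone methyltransferase, and Etfa (-1.0) and Etfb (-0.66), the subunits that pass electrons from fatty acid oxidation. Of 19 citric acid cycle genes 10 fell and 3 rose, with Sucla2 (-0.71), Dld (-0.61) and Dlst (-0.49) lowest in p. Of 30 genes for mitochondrial DNA and RNA upkeep 15 fell and 1 rose, among them Mterf3 (-0.52), Ssbp1 (-0.43) and Slirp (-0.31).

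The large subunit of the mitochondrial ribosome, regulators and import genes lay nearer to the share of all genes called lower than the lists above. Mitochondrial ribosome genes had 17 of 48 lower and 4 higher in the large subunit, and 13 of 30 lower and 2 higher in the small. Mrpl3 fell by 0.60 and Mrps27 by 0.74, while Mrpl38 rose by 0.66. Among 23 regulators 8 fell and 1 rose, with Thrb (-1.01), a thyroid hormone receptor, Sirt1 (-0.72), a deacetylase, and Gabpa (-0.42), the factor whose motif was searched above, lowest in p. Import genes were split, 9 lower and 6 higher of 28, with Timm9 lower by a value of -0.90. Of 22 genes of mitophagy and dynamics 11 fell and 4 rose, and Lonp1, a matrix protease, rose by 0.62. The 8 genes of adenine nucleotide carriers, outer membrane channels, uncoupling proteins and the ATP synthase inhibitor had 4 higher and 1 lower (median 0.17). Atpif1, the inhibitor of ATP synthase, rose by 1.28 (SE 0.13, adjusted p = 8.26e-10), Slc25a4 by 1.42 and Ucp2 by 1.0. With library totals alone Dlst (0.06), Mterf3 (0.03), Ssbp1 (0.12), Slirp (0.24) and Gabpa (0.13) were above 0. Atpif1 was also higher at month 2 (0.65) and month 6 (0.35), and Ucp2 at month 2 (0.73) and month 6 (0.62).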

How the data were processed

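RNA of 36 mouse livers was measured by ribosomal RNA-depleted, stranded, paired-end sequencing, per the labels' protocols. The deposited table holds read counts per gene symbol, unnormalized. Per the labels, the authors mapped reads with Biojupies; per the submitters' processing notes, limma 3.44.3, edgeR 3.30.3 and the mm10 build were part of the work. The annotation of genes and the handling of strand and of reads with several matches are not given in the sources used here. Samples were grouped by their titles.

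Genes with too few counts were removed with filterByExpr, leaving 15338. Counts were scaled by TMM and fitted in a single model of all 6 groups with edgeR 4.0.16 (R 4.3.3), using the quasi-likelihood F-test with Benjamini-Hochberg adjustment over all tested genes and a threshold of 0.05. The month 6 group was compared with the mean of both oil groups. In counts simulated for month 12 CCl4 against oil on 15338 genes, 61% of 100 log2 changes of 0.5 and 89% of 100 of 1 were called, with 0 of the wrong sign. The changed genes were well counted, went up and down in equal number, and all other genes were left equal between groups. In the data 49.1% of all genes were called at month 12, so the simulation does not give power or sign errors for them. No 2 libraries of a group agreed within sampling noise (lowest chi-square per degree of freedom 22.9 over 90 pairs).

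Members were found by symbol and a mean of at least 1 CPM. The members and gene lists were chosen with earlier results of these data known. Named genes were all mitochondrial members, the 3 nuclear members of smallest p in each direction per comparison, the 2 of smallest p per complex at month 12, isoform and complex I core genes, members called against their complex, and the 3 of smallest p in each other list; others are said to be chosen after their values were seen. Positions are GENCODE vM21 on mm10, and copies were found with BLAST 2.17.0 at 95% identity. Alternatives were RLE factors, library totals, TMM without mitochondrial genes, other filters, a replicate block, fits of the compared groups alone, limma-voom (3.58.1), DESeq2 (1.42.0), other references at month 6, leaving out each library, and, added after seeing the data, nuclear copies added and 4 or 10 libraries left out.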

Additional observations from a re-analysis of the deposited data

Results flagged for a closer look

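Of 162 groups of 6 libraries examined, 15 held a library far from the other 5. Chance gives about 1 in 20 for independent, normally distributed values. Low CPM values and mitochondrial genes that share transcripts are not such values, so that rate cannot show an excess here. The Cox6a2 level was highest by a wide gap in month 0 replicate 3 (5.66 CPM), month 2 oil replicate 6 (5.84 CPM) and month 6 CCl4 replicate 3 (3.10 CPM). Cox7a1 stood apart in month 0 replicate 3 (3.24 CPM), month 2 oil replicate 6 (4.01 CPM) and month 2 CCl4 replicate 6 (2.60 CPM). Summed muscle markers were 449, 339 and 10.4 CPM in these libraries, in the same order. Summed intestine markers were 790 CPM in month 2 CCl4 replicate 6, and their part was not tested. Uqcrb reached 199 CPM in month 2 oil replicate 5, against 157 CPM in the next library. Month 6 CCl4 replicate 1 was far above the others for mt-Nd3 (292 CPM), mt-Nd4 (1560 CPM), mt-Nd5 (1070 CPM) and mt-Nd6 (235 CPM). Replicate 2 of the same group held 730 CPM of mt-Co2, against 1860 CPM in the next lowest. mt-Nd4l was at 171 CPM in month 2 oil replicate 4 and 94.8 CPM in month 12 oil replicate 3, and mt-Nd5 at 1310 CPM in month 2 oil replicate 6.

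For 21 nuclear members the effect of CCl4 at month 12 differed from that at month 2 by the interaction test. The differences in log2 fold change (month 12 minus month 2, with TMM scaling) were, in complex I, Ndufa1 -0.39, Ndufb5 -0.52, Ndufc2 -0.38, Ndufs4 -0.52, Ndufs7 -0.39 and Ndufa7 0.38. For assembly factors they were Ndufaf1 -0.41, Ndufaf4 -0.66 and Ndufaf6 -0.47. Complex II had Sdha -0.61 and Sdhd -0.56. Complex III had Uqcrb -0.39, Uqcrc1 -0.59, Uqcrc2 -0.43, Uqcrfs1 -0.49 and Uqcrh -0.39. Complex IV had Cox5a -0.68 and Cox7a2 -0.46, and ATP synthase had Atp5f1 -0.43, Atp5j -0.44 and Atp5l -0.60. Of the 24 libraries of these groups, leaving out 1 ended the call of Ndufa1 and Ndufa7 for 17, Atp5f1 and Ndufc2 for 16, Ndufaf6 for 14, Uqcrb for 11, Ndufs7 for 7, Atp5j for 2, and Uqcrc2 and Uqcrh for 1. The other 11 calls held in each such fit. Without the 10 libraries high in muscle or pancreas markers 7 members were called, against 1799 of 15627 genes. Scaled to library totals the nuclear calls were 14, all higher.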

How the results depend on the processing

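Scaling mattered most. With library totals alone the nuclear calls were 4 at month 2, 61 at month 6, 40 at month 12 and 14 for the interaction, all higher, and 71 for month 2 oil against month 0. Of all genes 20.6%, 57.9%, 67.4%, 33.3% and 34.4% were then higher, in the same order. The mitochondrial calls were then 0 at month 6, 2 at month 12, 1 for the interaction and 13 for month 2 oil against month 0. At month 12, 67 of the 84 members below 0 with TMM stood above 0 with library totals, 44 of them among the 61 called lower. Of the genes named by rule and called, those changing sign were Atp5g1 0.26, Atp5g3 0.27, Atp5sl 0.0138, Cox4i1 0.28, Cox6b1 0.26, Cox7b 0.0498, Dlst 0.0627, Gabpa 0.13, Mfn2 0.0842, Mrps35 0.17, Mterf3 0.0343, Ndufa4 0.15, Ndufab1 0.13, Ndufaf1 0.0431, Ndufs7 0.0671, Ndufs8 0.21, Slirp 0.24, Ssbp1 0.12, Timm23 0.0604, Timm8b 0.0639, Uqcrh 0.0408, mt-Cytb 0.10 and mt-Nd4 0.11. Sdhb (0.09) and Atp5b (0.22), chosen after their values were seen, changed sign too. With only the compared groups the nuclear calls were 4 at month 2 and 36 at month 12. The mitochondrial calls were 6, 2 and, against month 0, 8. Of all genes 2182 of 14187, 6226 of 14519 and 4498 of 13778 were then called, in the same order. With no low-count filter the nuclear calls were 0 at month 2 and 11 for the interaction, the latter against 2800 of 24833 genes. limma-voom called 0 nuclear members at month 2 and DESeq2 2 mitochondrial. With month 12 oil as the month 6 reference 1 mitochondrial member was called. Without the 4 set-aside libraries the nuclear calls were 0 at month 2 and 2 at month 6. Without the 10 libraries high in muscle or pancreas markers they were 0 at month 2, 1 at month 6 and 7 for the interaction. The mitochondrial calls at month 12 were then 0, and 1799 of 15627 genes were called for the interaction. Fewer libraries enter that fit. Leaving out each library, nuclear calls ran from 0 to 1 at month 2, 0 to 2 at month 6, 45 to 65 at month 12, 14 to 27 for the interaction, 14 to 29 against month 0 and 41 to 56 for month 12 against 6, and mitochondrial calls from 2 to 11 at month 6, 1 to 8 at month 12, 4 to 6 against month 0 and 0 to 1 for month 12 against 6. The ratio against month 0 was 0.25 by mean log2 CPM. The causes were not tested.

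Replicate numbers are shared between groups, but same-numbered libraries did not deviate together in every pair for any groups compared, so the numbers were not taken as pairs. With the replicate block the month 2 nuclear count was 1, a higher gene in place of Uqcrb, and the month 12 count 60. No other count moved by over 1.5 times.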
